A study of Mus musculus with 3 samples.

Results

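Peri is the pericyte cluster that the authors set apart within the fibroblast lineage of the mouse renal medulla, and its members were all cells that carry this cluster label in the deposited per-cell tables. There were 1972 such cells among 181257. The healthy controls gave 720 pericytes of 78631 cells, the day 28 pools 818 of 59132, and the day 84 pools 434 of 43494. The cells came from adult male BALB/c mice, either healthy or after reversible unilateral ureteric obstruction (R-UUO), in which a clamp closes the ureter and is then released. Mice followed after R-UUO also lost the opposite kidney, while healthy controls did not, so that the effects of obstruction and of nephrectomy cannot be told apart here. Each sample pooled the dissected papillae or medullas of 3 to 4 animals. There were 4 healthy control pools, 4 day 28 pools and 2 day 84 pools, and the pool was the replicate in every comparison. The day counts from release of the clamp.

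The assay reads the RNA of fixed cells through hybridised probes, each pool with its own probe barcode. Droplet barcodes of pericytes recurred in another pool of the same condition in 25.3% to 56.8% of cells a pool and in another condition in 9.46% to 14.4%, so that each condition appears to be a droplet run of its own, and run and condition cannot be told apart. Pools held 13013 to 24338 cells. UMI counts (numbers of distinct RNA molecules) were fractional in healthy control pool 1 and whole numbers elsewhere. The expression of single genes was not analysed here, so the pericyte label could not be checked against Rgs5 and Notch3, the markers by which pericytes are usually recognised, and the name Peri is the authors'.

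Pericytes are contractile mural cells that sit within the basement membrane of capillaries and stay in contact with the endothelium. In the renal medulla they line the descending vasa recta, the vessels that carry blood into the papilla, and adjust the width of these vessels and so medullary blood flow. They share a mesenchymal origin with interstitial fibroblasts and have been studied as a possible source of myofibroblasts, the matrix-producing cells of fibrosis. For this reason the pericytes were compared below with all cells, with endothelial cells (ECs), and with the fibroblast (Fib) and myofibroblast (MyoFib) clusters of their own lineage.

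Pericytes made up a larger share of all cells at day 28 than in the controls, but not clearly so at day 84. The share was 0.946%, 0.966%, 1.03% and 0.748% in control pools 1 to 4. At day 28 it was 0.999%, 1.34%, 1.60% and 1.51%, and at day 84 it was 1.08% and 0.931%. In 3 of the 4 day 28 pools the share lay above that of every control pool, day 28 pool 1 lay among the controls, day 84 pool 1 lay just above them and day 84 pool 2 among them. Counting error was moderate, since each pool held 130 to 264 pericytes. The 95% Wilson interval of the lowest control share ran from 0.638% to 0.876% and that of the highest day 28 share from 1.42% to 1.80%, and these intervals cover counting error only. In limma, fitted over the 25 clusters of the data, the log2 odds of a cell being a pericyte were 0.56 higher at day 28 (SE 0.209, 95% interval 0.08 to 1.03, adjusted p = 0.0330). This is 1.47-fold on the odds scale. At this threshold, an adjusted p of 0.05, 88% of the clusters differed between day 28 and control, and by the size of their change the pericytes ranked 22 of 25. The exact two-sided permutation test of the pools gave p = 0.0571. The call also failed without control pool 1 or 4 or without day 28 pool 2, 3 or 4, with adjusted p-values in limma of up to 0.0873.

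At day 84 the log2 odds were 0.13 higher than in the controls (SE 0.257, 95% interval -0.45 to 0.71, limma adjusted p = 0.665), while 48% of the clusters passed. The interval still allows a change of the size fitted at day 28. Between day 84 and day 28 the difference was -0.43 (95% interval -1.01 to 0.16, limma adjusted p = 0.327), and 8% of the clusters passed. A share depends on what else was dissected. Proximal tubule cells, which belong to tissue outside the papilla, were 0.113% to 3.02% of the control pools, 2.95% to 22.8% of the day 28 pools, and 3.60% and 7.64% at day 84. With these cells left out of the total, pericytes were 0.950%, 0.996%, 1.04% and 0.749% of the remaining control cells and 1.29%, 1.70%, 1.84% and 1.56% of those at day 28, so that all 4 day 28 pools lay above the controls. The log2 odds were then 0.78 higher at day 28 (limma adjusted p = 0.00373). Other cells of the outer medulla remain in these counts, so leaving out proximal tubule cells does not correct for the dissection. The paper names the variable outer medulla in its samples as a limit on counting the cells of that region.

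**Figure D1:**
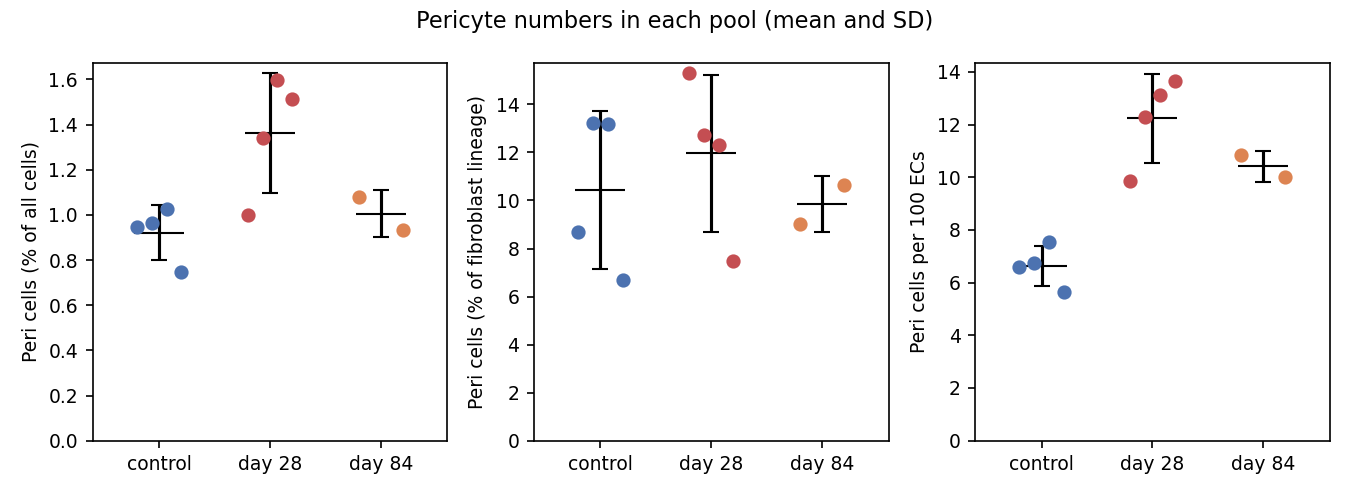
Pericytes of each pool as a percent of all cells (left), as a percent of fibroblast lineage cells (middle) and per 100 ECs (right), with points for pools and black bars for the mean and SD. The right panel alone shows no overlap between control and R-UUO pools, at 5.66 to 7.53 against 9.84 to 13.7 at day 28 and 10.8 and 10.0 at day 84.

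Set against counting error, the pericyte share varied less between pools of the same condition than that of any other cluster. The spread of its share was 2.18 times the spread that counting error alone would give, the lowest of 25 clusters, while the other clusters ranged from 3.42 to 16.4 with a median of 7.85. This is a description with no test, and a small cluster has more counting error to be set against.

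Relative to ECs, pericytes were more frequent at day 28 than in the controls, and both day 84 pools lay on the same side without passing the test. There were 6.60, 6.73, 7.53 and 5.66 pericytes per 100 ECs in the control pools. At day 28 there were 9.84, 12.3, 13.1 and 13.7, and at day 84 there were 10.8 and 10.0. Every R-UUO pool lay above every control pool, and the means were 6.63 ± 0.767 (SD, n = 4), 12.2 ± 1.69 (SD, n = 4) and 10.4 ± 0.587 (SD, n = 2). The log2 ratio rose by 0.88 at day 28 (SE 0.203, 95% interval 0.42 to 1.34, limma adjusted p = 0.00350), which is 1.84-fold, and the exact permutation p of 0.0286 is the smallest that 4 pools against 4 allow. Of the 25 ratios of pericytes to another cluster or to all ECs, 76% passed in this comparison. At day 84 the log2 ratio was 0.66 higher (SE 0.248, 95% interval 0.10 to 1.22), or 1.58-fold, and the adjusted p of 0.0503 in limma just failed the threshold, which 44% of the ratios passed. The exact permutation p of 0.0667 is the smallest that 4 pools against 2 allow. Day 84 and day 28 differed by -0.22 (95% interval -0.78 to 0.34, limma adjusted p = 0.582), with 20% of the ratios past the threshold.

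The EC share of all cells was lower in every R-UUO pool than in every control pool. ECs made up 13.2% to 14.4% of control cells, 10.2% to 12.2% at day 28, and 9.94% and 9.31% at day 84. The numbers of pericytes and ECs per kidney were not measured, so a larger ratio cannot be split into more pericytes and fewer ECs. The ratio at day 28 passed the threshold in all 14 refits with limma, with changes from 0.54 to 0.98, of which 0.54 was found with EndoVR/papilla cells left out of the ECs. At day 84 size and call depended on the fit. With EndoVR/papilla cells left out the change was 0.33 (limma adjusted p = 0.254), and when cells under 500 genes or over 5% mitochondrial UMIs were left out the change was 1.24 (limma adjusted p = 0.00872). ECs had fewer detected genes than pericytes at day 84, with medians of 560 and 446 per cell against 625 and 580, and the part that a filter on genes plays in the ratio was not tested.

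The ECs fall into 3 clusters, and the pericytes held different proportions to each of them. The cluster Endo_a was the most numerous, with 1205 to 2484 cells a pool. There were 10.6, 9.46, 11.5 and 9.47 pericytes per 100 Endo_a cells in the controls, 10.8, 13.6, 15.7 and 15.0 at day 28, and 15.1 and 13.5 at day 84. In 3 of 4 day 28 pools and in both day 84 pools the value lay above every control pool, but the changes in log2 ratio did not pass in limma, at 0.42 (95% interval -0.04 to 0.88, adjusted p = 0.0849) and 0.48 (95% interval -0.09 to 1.05, adjusted p = 0.128). Day 28 passed without day 28 pool 1, at 0.53 (limma adjusted p = 0.0251), and day 84 passed when cells under 500 genes or over 5% mitochondrial UMIs were left out, at 1.32 (limma adjusted p = 0.00872).

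The ratio of pericytes to Endo_b cells rose at day 28 and fell again by day 84. Endo_b cells were 0.978% to 1.52% of all cells in the controls, 0.246% to 0.950% at day 28, and 2.43% and 1.42% at day 84. The ratio therefore moves with the Endo_b share as well as with the pericytes. The control pools held 62.7, 63.3, 105 and 59.6 pericytes per 100 Endo_b cells, the day 28 pools 406, 244, 480 and 159, and the day 84 pools 44.4 and 65.4. All 4 day 28 pools were above both other groups, which overlapped each other. The log2 ratio was 2.05 higher at day 28 than in the controls (SE 0.382, limma adjusted p = 9.64e-04) and fell by 2.44 from day 28 to day 84 (limma adjusted p = 0.0130). That fall was the largest change of the 25 ratios between the R-UUO time points. At day 84 the ratio was 0.39 lower on the log2 scale than in the controls (95% interval -1.45 to 0.67, limma adjusted p = 0.463). Endo_b was a small cluster, with 32 to 148 cells in the day 28 pools, so these values carry much counting error. Without day 84 pool 1 or pool 2 the fall between the R-UUO time points no longer passed, with limma adjusted p-values of 0.0851 and 0.0579.

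Against the cluster EndoVR/papilla, whose name places it in the vasa recta of the papilla, pericytes were in the minority in every control pool and in the majority in 4 of the 6 R-UUO pools. The controls held 24.3, 36.8, 27.8 and 18.4 pericytes per 100 EndoVR/papilla cells. At day 28 the values were 155, 258, 97.4 and 2950, and at day 84 they were 284 and 96.9. No R-UUO pool overlapped a control pool. EndoVR/papilla cells were 2.62% to 4.06% of all cells in the controls, 0.0514% to 1.64% at day 28, and 0.379% and 0.961% at day 84. This ratio too moves with the share of the EC cluster as well as with the pericytes. The value of 2950 comes from day 28 pool 4, in which only 8 EndoVR/papilla cells stood beside 236 pericytes.

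The log2 ratio of pericytes to EndoVR/papilla cells rose by 3.63 at day 28 (SE 0.939, 95% interval 1.50 to 5.75, limma adjusted p = 0.00551). Without day 28 pool 4 the rise was 2.59 (limma adjusted p = 8.94e-04). At day 84 the change was 2.67 (95% interval 0.07 to 5.26) and did not pass, with a limma adjusted p of 0.0755 with all pools and 0.00296 without day 28 pool 4, a pool that enters this comparison only through the shared spread.

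**Figure D2:**
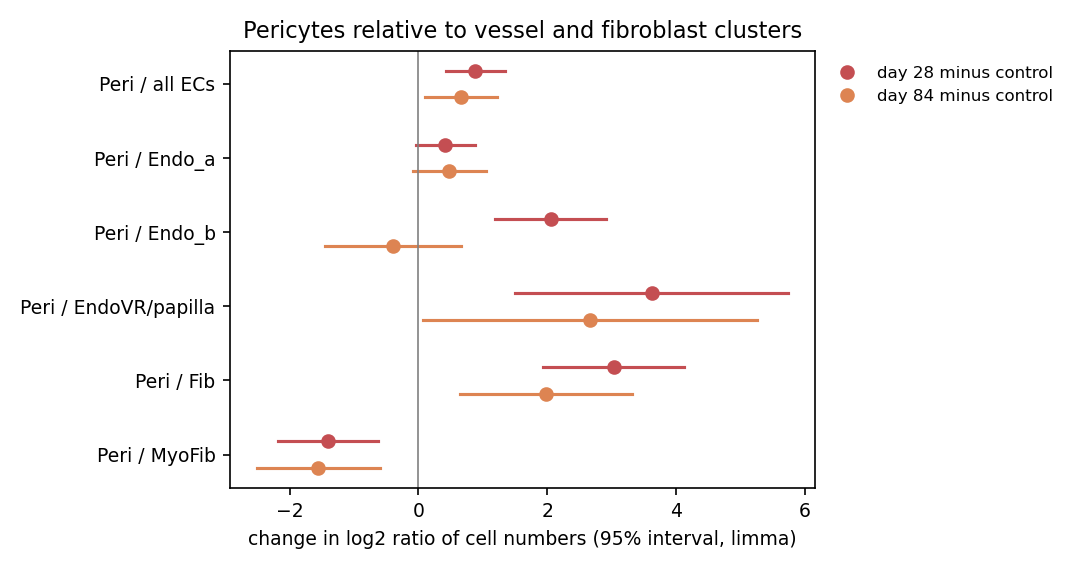
Change in the log2 ratio of pericytes to all ECs, to each EC cluster and to the Fib and MyoFib clusters at day 28 (red) and day 84 (orange) against control. Points are limma estimates and lines are 95% intervals before adjustment. Of the ratios shown, that to EndoVR/papilla rose most (3.63 at day 28) and that to MyoFib fell (-1.41 and -1.56).

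Within the fibroblast lineage, the pericyte share did not differ detectably while the shares of the other clusters moved apart. Pericytes were 8.69%, 13.2%, 13.2% and 6.68% of lineage cells in the controls, 15.3%, 12.7%, 12.3% and 7.47% at day 28, and 9.02% and 10.7% in the day 84 pools. The 3 conditions overlapped, and pools of a condition differed more than conditions did. The change in log2 odds was 0.23 at day 28 (SE 0.458, 95% interval -0.73 to 1.19, limma adjusted p = 0.620) and -0.04 at day 84 (SE 0.561, 95% interval -1.22 to 1.13, limma adjusted p = 0.939), so that at day 84 odds from 0.429-fold to 2.19-fold of the control lie within the interval.

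The Fib and MyoFib clusters changed places around the pericytes. Fib cells, the resident interstitial fibroblasts, were 3.71% to 8.32% of all cells in the controls, 0.623% to 2.29% at day 28, and 1.17% and 2.18% at day 84. MyoFib cells were 1.75% to 2.82% of the controls, 4.61% to 18.1% at day 28, and 9.69% and 5.62% at day 84. In neither cluster did the R-UUO pools overlap the controls.

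There were 13.3, 26.0, 20.5 and 8.99 pericytes per 100 Fib cells in the control pools. The day 28 pools held 108, 157, 69.7 and 243, and the day 84 pools held 91.8 and 42.7. Each R-UUO pool lay above each control pool, and in 3 of 4 day 28 pools pericytes outnumbered Fib cells. The log2 ratio rose by 3.03 at day 28 (SE 0.484, 95% interval 1.94 to 4.12, limma adjusted p = 3.85e-04) and by 1.98 at day 84 (SE 0.593, 95% interval 0.64 to 3.31, limma adjusted p = 0.0214). The day 84 call was lost without day 84 pool 1, at 1.42 (limma adjusted p = 0.198), and without control pool 1 (limma adjusted p = 0.0512).

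Relative to MyoFib cells, the cluster named for myofibroblasts, pericytes became fewer. There were 33.6, 36.8, 58.7 and 35.0 pericytes per 100 MyoFib cells in the control pools, 21.7, 16.1, 17.6 and 8.35 at day 28, and 11.1 and 16.6 at day 84. All R-UUO pools lay below all control pools. The log2 ratio fell by 1.41 at day 28 (SE 0.345, 95% interval -2.19 to -0.63, limma adjusted p = 0.00461) and by 1.56 at day 84 (SE 0.423, 95% interval -2.51 to -0.60, limma adjusted p = 0.0137). Without day 84 pool 1 the latter change was -1.27 (limma adjusted p = 0.132). Day 84 and day 28 differed by -0.15 (95% interval -1.10 to 0.80, limma adjusted p = 0.870).

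**Figure D3:**
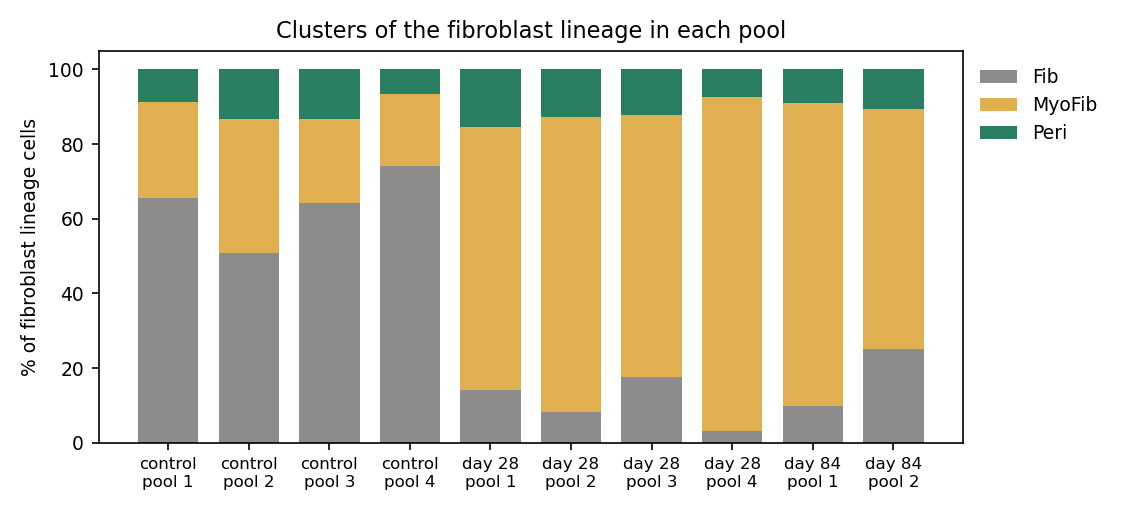
Percent of fibroblast lineage cells that belong to the clusters Fib (grey), MyoFib (yellow) and Peri (green) in each pool, with bars that add up to all lineage cells of the pool. The green part stayed between 6.68% and 15.3% in all 10 pools while the grey part shrank and the yellow part grew after R-UUO.

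Pericytes were cells of modest RNA content. The median UMI count per pericyte was 1049, 1250, 927.5 and 976 in the control pools, 2575, 1618.5, 1370.5 and 1186 at day 28, and 736 and 706 at day 84. Of the day 28 pools, 3 lay above every control pool, and both day 84 pools lay below every control pool. The log2 median was 0.63 higher at day 28 than in the controls (SE 0.245, 95% interval 0.14 to 1.11, limma adjusted p = 0.0229), where 55.6% of the 18 clusters with at least 10 cells in every pool passed. The exact permutation test gave p = 0.0571, and the call was lost without control pool 1, 3 or 4 or without day 28 pool 2, with limma adjusted p-values of up to 0.0784. At day 84 it was 0.53 lower than in the controls (95% interval -1.13 to 0.06, limma adjusted p = 0.0993), where 50% passed. Without day 28 pool 1 that difference passed (limma adjusted p = 0.0127), as did 83.3% of the clusters. Between day 84 and day 28 the fall was 1.16 (95% interval -1.76 to -0.57, limma adjusted p = 2.77e-04), and 100% of the clusters passed.

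The depth of the whole pool moved in the same way. The other cells of the pools had medians of 1140, 1583, 1174 and 1209 UMIs in the controls, 3308, 2221, 1866 and 1576 at day 28, and 914 and 752 in the day 84 pools. The pericyte median was below that of the other cells in 10 of 10 pools. Expressed as a ratio, pericytes had 0.920, 0.790, 0.790 and 0.807 of the UMIs of other cells in the controls, 0.778, 0.729, 0.734 and 0.753 at day 28, and 0.805 and 0.939 in the day 84 pools. The day 28 ratios lay below all control ratios, by 0.14 on the log2 scale (95% interval -0.33 to 0.05). This did not pass in limma (adjusted p = 0.193, with 33.3% of clusters passing), while the exact permutation test gave its smallest p of 0.0286. At day 84 the ratio differed from control by 0.08 (95% interval -0.16 to 0.31, limma adjusted p = 0.638, with 11.1% passing). The day 28 difference took the other sign, at 0.17 (limma adjusted p = 0.106), when fibroblast lineage and endothelial cells alone were the reference, so that its direction depends on the cells it is set against.

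**Figure D4:**
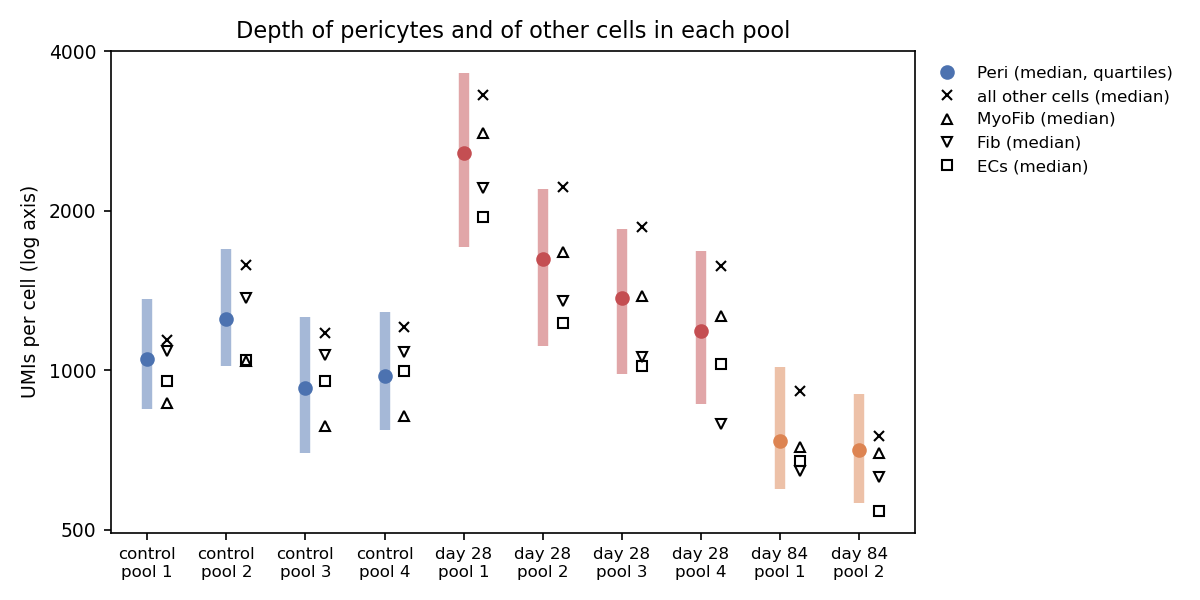
UMIs per cell on a log axis for each pool. Filled points and thick bars are the median and quartiles of pericytes, and open symbols are the medians of all other cells, MyoFib, Fib and ECs of the same pool. The pericyte median follows the depth of its pool, lies above MyoFib in all control pools and below MyoFib in all day 28 pools.

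Within a pool, where depth is shared, the UMIs of pericytes relative to MyoFib and Fib cells shifted after R-UUO. Pericytes fell below MyoFib cells at day 28 alone. Pericytes had 1.21, 1.20, 1.18 and 1.19 times the median UMIs of MyoFib cells in the controls, 0.918, 0.967, 0.993 and 0.936 times at day 28, and 1.03 and 1.01 times at day 84. The 4 control ratios lay between 1.18 and 1.21, and no R-UUO pool reached them. The order against Fib cells turned the other way. Pericytes had 0.966, 0.914, 0.868 and 0.902 times the UMIs of Fib cells in the controls, 1.17, 1.20, 1.30 and 1.50 times at day 28, and 1.14 and 1.12 times at day 84, again without overlap. Against ECs the ratios were 1.10, 1.20, 0.973 and 0.981 in the controls, 1.32, 1.32, 1.34 and 1.15 at day 28, and 1.09 and 1.30 at day 84, and these overlapped. The clusters were drawn from the same cells, so these ratios are given with no test.

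The number of genes detected per pericyte followed the UMI count. Medians were 854, 953, 716.5 and 754.5 genes in the controls, 1719, 1196.5, 1014 and 905.5 at day 28, and 625 and 580 at day 84. As with the UMIs, 3 day 28 pools were above and both day 84 pools below every control pool. The log2 median was 0.53 higher at day 28 (SE 0.188, limma adjusted p = 0.0181, with 61.1% of 18 clusters passing) and 0.44 lower at day 84 (95% interval -0.89 to 0.02, limma adjusted p = 0.0781, with 72.2% passing). From day 28 to day 84 it fell by 0.96 (limma adjusted p = 1.00e-04, with 100% passing). The call at day 28 was lost without control pool 3 or 4 or without day 28 pool 2, with limma adjusted p-values of up to 0.0631. The difference at day 84 passed without day 28 pool 1 (limma adjusted p = 0.00994), as did 83.3% of the clusters.

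The difference was smaller among pericytes within a set range of UMIs, called matched depth below. In pericytes with 800 to 1600 UMIs, of which each pool held 20 to 143, the median number of genes was 876, 916.5, 798 and 800 in the controls, 1014, 912.5, 917 and 850 at day 28, and 824.5 and 778 in the day 84 pools. The day 28 and day 84 pools both overlapped the controls, and the highest value, in day 28 pool 1, rests on 20 cells. Depth may still differ within the window and was not compared there. The upper quartile of pericyte UMIs was 1016 and 902 in the day 84 pools, while the lower quartile was 1709.5 in day 28 pool 1. The log2 differences from control were 0.12 at day 28 (95% interval -0.00 to 0.25, limma adjusted p = 0.153, with 15.4% of 13 clusters passing) and -0.08 at day 84 (95% interval -0.24 to 0.08, limma adjusted p = 0.375, with 46.2% passing). Day 84 was lower than day 28 by 0.20 (95% interval -0.36 to -0.05, limma adjusted p = 0.0221, with 76.9% passing). This call was lost without day 28 pool 1, at -0.16 (limma adjusted p = 0.0832), and without day 84 pool 2, at -0.16 (limma adjusted p = 0.149). In the window of 500 to 1000 UMIs the day 84 pericytes had fewer genes than the controls, by 0.17 on the log2 scale (limma adjusted p = 0.0106). There 91.7% of 12 clusters passed, so the pericytes did what nearly all clusters did.

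The mitochondrial share of pericyte UMIs was far lower in all R-UUO pools than in the controls, and it was also lower in the other cells. The mean mitochondrial percent of pericytes was 0.828%, 1.58%, 0.923% and 0.803% in the control pools, 0.208%, 0.0290%, 0.0355% and 0.0711% at day 28, and 0.0198% and 0.000376% at day 84. No pools of control and R-UUO overlapped. The log2 of the mean, after adding 0.01%, fell by 3.74 at day 28 (SE 0.765, limma adjusted p = 1.53e-04). At day 84 it fell by 5.83 (SE 0.937, limma adjusted p = 2.22e-05). The mean of day 84 pool 2, at 0.000376%, lay far below the added 0.01%, so the size of the change depends on that constant. Over 14 refits with limma, another added constant among them, the change ranged from -4.26 to -2.65 at day 28. At day 84 it ranged from -6.59 to -3.32. In both comparisons 94.4% of the 18 clusters passed, so that the pericytes did what nearly all clusters did. The exact permutation p was 0.0286 at day 28 and 0.0667 at day 84, the smallest that these numbers of pools allow.

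No mitochondrial UMI was found in 5 of the 720 control pericytes, in 555 of the 818 from day 28 and in 408 of the 434 from day 84. By pool this was 0%, 0%, 0.676% and 2.63% in the controls, 38.5%, 75.0%, 75.8% and 69.5% at day 28, and 88.3% and 99.5% in the day 84 pools. The other cells of the same pools had no mitochondrial UMI in 0.0166% to 1.17% of controls, 34.5% to 74.3% at day 28, and 59.6% and 96.7% at day 84. Each condition appears to be a separate run, and the parts of the run and of R-UUO in this loss cannot be told apart. The mean mitochondrial percent of pericytes was below that of all other cells in 10 of 10 pools. It was below that of Fib cells in 2, of MyoFib cells in 4 and of ECs in 5 of the 10 pools.

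**Figure D5:**
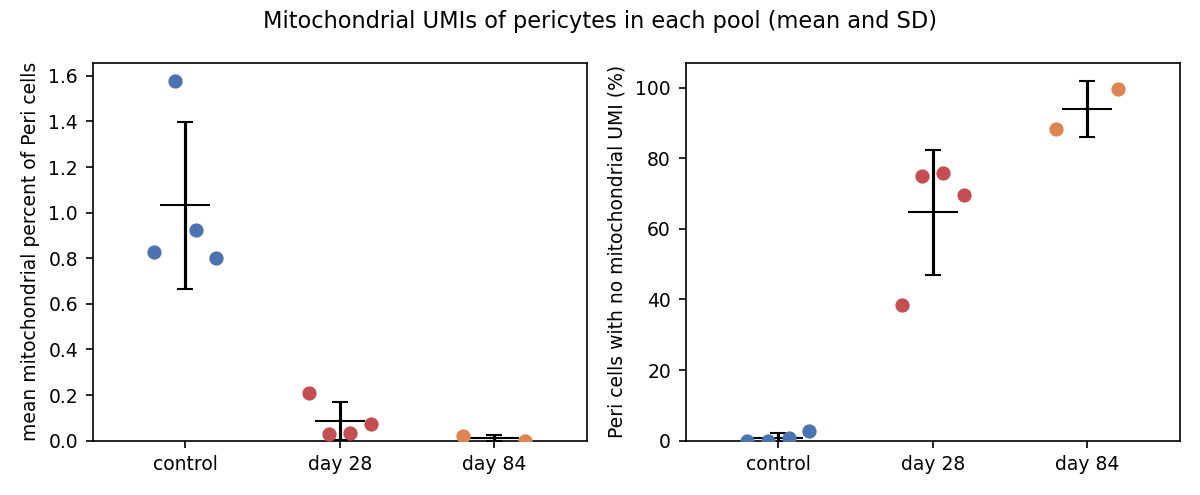
Mean mitochondrial percent of pericytes (left) and percent of pericytes with no mitochondrial UMI (right) in each pool, with black bars for the mean and SD. All control pools lie at 0.803% or above on the left and at 2.63% or below on the right, apart from every R-UUO pool.

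Few pericytes were among the cells with the most UMIs, where doublets would be sought. Only 4 of 1972, or 0.203%, were among the 5% of cells with the most UMIs in their pool, 3 of them in day 28 pool 1. The authors had already removed doublets, and cells under 300 genes or over 10% mitochondrial reads, so all pericytes kept to these limits. The fewest genes seen in a pericyte were 353. Droplet barcodes were shared with a cell of another pool of the same condition by 927 of 1972 pericytes, or 47.0%. The share was 54.1% to 56.8% in the control pools, 46.9% to 54.8% at day 28, and 25.4% and 25.3% at day 84, beside 54.0% to 61.1%, 47.0% to 49.8%, and 27.2% and 22.6% of the other cells. Day 84 had fewer other pools in which a barcode could recur, so its share cannot be compared with those of the controls and day 28. Among the 1147 partner cells in the shared droplets, 8, or 0.697%, were pericytes themselves. Pericytes with and without a partner differed in median depth in both directions. The medians were 1271 and 1221.5 UMIs in control pool 2, for example, 1436 and 1323 in day 28 pool 3, and 787.5 and 713 in day 84 pool 1. They were 2511 and 2623 in day 28 pool 1, and 686 and 729 in day 84 pool 2.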

How the data were processed

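Single cells of dissected renal medullas and papillae were measured with a probe-based assay of fixed RNA. According to the submitters' processing notes the reads were handled with Cell Ranger 7.1 and mm10. By their methods, the authors used SoupX against ambient RNA, scDblFinder and a search for mixed signatures against doublets, a minimum of 300 genes and a maximum of 10% mitochondrial reads, and Seurat for clustering. The values deposited by the authors are, for each cell, a UMI count (expected counts with fractions in healthy control pool 1), a count of detected genes, a mitochondrial percent, and the names of its pool, type and cluster. Labels were taken as given, and expression of single genes was not analysed here.

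The pool was the replicate. Cells were counted per pool and cluster, 0.5 cells were added, and log2 odds or log2 ratios were compared with limma 3.58.1 (R 4.3.3), with two-sided tests, the 3 conditions in the same fit, and p-values adjusted by Benjamini-Hochberg over the 25 clusters or ratios, over the 3 lineage clusters, or over the 18 (13 at matched depth) clusters with at least 10 cells in every pool. Medians of UMIs and genes were compared on the log2 scale, and mean mitochondrial percents after adding 0.01. The threshold was an adjusted p of 0.05. Exact permutation tests compared pool means. By the methods, every pool was dissociated and hybridised on its own, so the spread between pools holds both the animals and this handling. Depth was 13013 to 24338 cells and 130 to 264 pericytes a pool, and intervals are 95% Wilson intervals. The fit of shares of all cells was tested on simulated cell counts for day 28 against control, and the other fits were not simulated. Python 3.11.15 with pandas 2.3.3, scipy 1.17.1 and matplotlib 3.10.9 served for the tables and plots. Alternatives were leaving out each pool in turn, a stricter cell filter, other denominators, added constants, windows and summaries, edgeR 4.0.16 on the cell counts, and pooling cells.

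The clusters named with values are Peri, Fib, MyoFib, the EC clusters, and proximal tubule cells as a measure of the dissection. The members and these lists were chosen with earlier results of these data known.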

Additional observations from a re-analysis of the deposited data

Results flagged for a closer look

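A pool was singled out where its gap to the nearest other pool of its condition, divided by the range of the condition, passed Dixon's 95% critical value. Of 28 groups of 4 pools tested, 6 gave such a value, where chance gives about 1 in 20. Healthy control pool 3 held 58.7 pericytes per 100 MyoFib cells, beside 33.6 to 36.8 in the other control pools. The same pool held 105 pericytes per 100 Endo_b cells, beside 59.6 to 63.3. Day 28 pool 4 held 2950 pericytes per 100 EndoVR/papilla cells, beside 97.4 to 258, with 8 EndoVR/papilla cells in that pool. In healthy control pool 1, the pool with fractional UMI counts, the pericyte median UMI count was 0.920 of that of other cells, beside 0.790 to 0.807. The mean mitochondrial percent of pericytes was 1.58% in healthy control pool 2, beside 0.803% to 0.923%, and that of the other cells was likewise the highest of the control pools there, at 2.43%. Pericytes with no mitochondrial UMI were 38.5% in day 28 pool 1, beside 69.5% to 75.8% in the other day 28 pools. The share among the other cells was likewise lowest there, at 34.5% beside 67.3% to 74.3%. Among pericytes at matched depth it was 35% in that pool, on 20 cells, and 71.2% to 80.4% in the other day 28 pools.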

How the results depend on the processing

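The day 28 ratio of pericytes to ECs kept its direction and, where tested, its call in all 17 alternatives, and so did the day 28 fall in mitochondrial percent in all 15. No paired analysis was possible because pool numbers only name pools of different animals in each condition. All changes here are on the log2 scale, with adjusted p-values from limma unless stated.

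The stricter cell filter (500 or more genes, no more than 5% mitochondrial UMIs) gave 0.50 for the day 28 share of all cells (adjusted p = 0.0565), 0.11 for the day 84 lineage share (adjusted p = 0.837), 1.24 for the day 84 ratio to ECs (adjusted p = 0.00872) and 0.35 for that ratio between day 84 and day 28. It gave 0.23 for EndoVR/papilla between day 84 and day 28, and -0.21 (adjusted p = 0.0157) and -0.093 for relative UMIs at days 28 and 84. Leaving MyoFib out of the lineage gave 3.03 at day 28 (adjusted p = 4.18e-05) and 1.98 at day 84 (adjusted p = 0.00757), since the remaining denominator is Fib and Peri. The quasi-likelihood test of edgeR gave 0.65 for the day 84 ratio to ECs (adjusted p = 0.0396). Relative to fibroblast lineage and endothelial cells, UMIs differed by 0.17 at day 28 and by -0.047 between day 84 and day 28. The window of 500 to 1000 UMIs gave -0.0039 for genes at day 28 (adjusted p = 0.976) and -0.17 at day 84 (adjusted p = 0.0106, with 91.7% of 12 clusters passing). Apart from the construction named, the causes were not tested.

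Exact permutation tests, which cannot go below 0.0286 or, with the 2 day 84 pools, 0.0667, put the day 28 changes in share (0.56), UMIs (0.63) and genes (0.53) at p = 0.0571. They put the changes between day 84 and day 28 in UMIs (-1.16), genes (-0.96) and genes at matched depth (-0.20), and the day 84 mitochondrial change (-5.83), at 0.0667, and the day 28 relative UMIs (-0.14) at 0.0286.

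Leaving out each pool in turn gave 0.46 to 0.70 for the day 28 share of all cells, -0.26 to 0.10 for the day 84 lineage share, and 0.58 to 0.72 for the day 84 ratio to ECs, which passed without day 28 pool 1 or 4. It gave 0.40 to 0.78 for UMIs at day 28 and -0.59 to -0.45 at day 84, 0.34 to 0.65 and -0.50 to -0.36 for genes, -0.035 to 0.19 for relative UMIs at day 84, -0.24 to -0.16 for genes at matched depth between day 84 and day 28, and -2.85 to -1.33 for the mitochondrial percent between day 84 and day 28, which passed without day 84 pool 1 (adjusted p = 0.0370). Between day 84 and day 28 the ratio ranged from -0.049 to 0.15 for Endo_a, from -1.73 to 0.078 for EndoVR/papilla and from -0.44 to 0.14 for MyoFib. Over all limma refits, other constants and summaries included, the mitochondrial change between day 84 and day 28 ranged from -2.85 to -0.67.

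The number of clusters passing moved by over 1.5 times. With fibroblast lineage and endothelial cells as the denominator, 5 of 6 clusters (83.3%) passed at day 28 against 22 of 25, 2 of 6 (33.3%) at day 84 against 12 of 25, and 1 of 6 between day 84 and day 28 against 2 of 25, so the lower counts come with fewer clusters tested. Leaving out each pool in turn gave 7 to 14 shares at day 84 (12 with all pools) and 0 to 4 between day 84 and day 28 (2), 5 to 14 ratios (11) and 0 to 7 ratios (5) in the same comparisons, 6 to 14 UMI medians at day 28 (10) and 2 to 15 at day 84 (9), 5 to 13 gene medians at day 28 (11) and 2 to 15 at day 84 (13), and 1 to 4 relative UMIs at day 84 (2). Genes at matched depth gave 0 to 3 of 13 at day 28 (2) and 0 to 7 at day 84 (6). Between them 2 to 10 passed (10). The lower window gave 8, 11 and 6 of 12. The stricter filter gave 3 UMI medians at day 84, and 11 and 9 relative UMIs at days 28 and 84 (6 and 2). It gave 4 shares between these days, as did omitting proximal tubule cells (of 21). Relative to fibroblast lineage and endothelial cells, 4 relative UMIs passed at day 84.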
